A study of Hyphopichia burtonii and Hyphopichia pseudoburtonii with 16 samples.

Results

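Genes that modify and process transfer RNA (tRNA) were followed in a pair of yeasts, Hyphopichia burtonii KJJ43 and, as a second species, Hyphopichia pseudoburtonii KJS14, over 30 min in salt. A gene was taken where its deposited description held the word tRNA, with the aminoacyl-tRNA ligases and small nucleolar entries left out. This gave 58 of 6115 genes in H. burtonii and 61 of 5900 in H. pseudoburtonii, 119 of 12015 in all, by a rule that itself uses no expression value. Of these, 50 could be paired between the species, 46 by protein accession and 4 by gene name. Both strains are labelled wild type and came from Nuruk, a Korean fermentation starter. Cells growing in the rich medium YPD were harvested at an optical density of 2.0 (0 min), and the rest of the culture received an equal volume of YPD holding 2 M NaCl, so that the labels give 1 M NaCl, with harvests 5, 15 and 30 min later. Each species and time has 2 libraries, 16 in all. All groups share the rich medium, and every later group received fresh medium with the salt while no course without salt is present, so salt and fresh medium cannot be told apart. Each species is 1 strain measured in its own series of libraries and normalised in its own table, so species and library series cannot be told apart either.

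Before a tRNA is used in translation its precursor is trimmed at both ends, spliced where the gene holds an intron, given a CCA tail and modified at many bases. Modifications of the anticodon loop, such as wybutosine, thiolated uridine, inosine and threonylcarbamoyl adenosine, bear on how codons are read, and those of the body of the molecule, such as methylated guanine, dihydrouridine and pseudouridine, bear on its folding and lifetime. In Saccharomyces cerevisiae most of these enzymes act in the nucleus or cytosol and a smaller set acts in mitochondria.

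By role, the largest list was that of methylases, with 18 genes in each species. The lists for wybutosine, dihydrouridine, thiolation and the wobble uridine, threonylcarbamoyl and isopentenyl adenosine, and deamination and acetylation held 3, 4, 4, 3 and 4 genes in either species. Pseudouridine synthases numbered 4 and 3, and splicing and end processing genes 5 and 9, in H. burtonii and H. pseudoburtonii. The description rule also took genes that neither modify nor process tRNA. They are 9 and 10 genes that act on charged or mischarged tRNA, such as the mitochondrial amidotransferase and the peptidyl-tRNA hydrolases. A last list of 4 and 3 genes is mixed. In it the arginyl transferase ATE1 tags proteins for degradation, while RIT1 marks the initiator tRNA in S. cerevisiae. TILS_SCHPO is also in that list. The genes lie on 8 chromosomes in each species, and no gene span among them overlapped another gene of the tables.

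Expression is given as FPKM, fragments scaled by transcript length and by the mapped fragments of the library, which can be set side by side between genes because it is per length. In H. burtonii the median of the 58 genes was 13.3 and 10.3 FPKM in the 0 min libraries and 26.3 and 24.9 FPKM in the 30 min libraries. In H. pseudoburtonii the median of the 61 genes was 35.8 and 38.5 FPKM at 0 min, 49.1 and 44.0 at 5 min and 39.4 and 35.6 at 30 min. The median was higher at each harvest than at the one before in H. burtonii and was highest at 5 min in H. pseudoburtonii, while over all tested genes it went from 25.9 and 28.8 FPKM at 0 min to 38.9 and 39.0 at 30 min and from 39.1 and 39.3 to 55.1 and 56.0. At 0 min 25 of the 58 genes of H. burtonii averaged under 10 FPKM while each of the 61 of H. pseudoburtonii averaged more. The mean was highest at 30 min for 39 of the 58 genes of H. burtonii and at 5 min for 30 of the 61 of H. pseudoburtonii. In bulk RNA, fewer cells of a kind and less RNA per cell cannot be told apart.

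**Figure D1:**
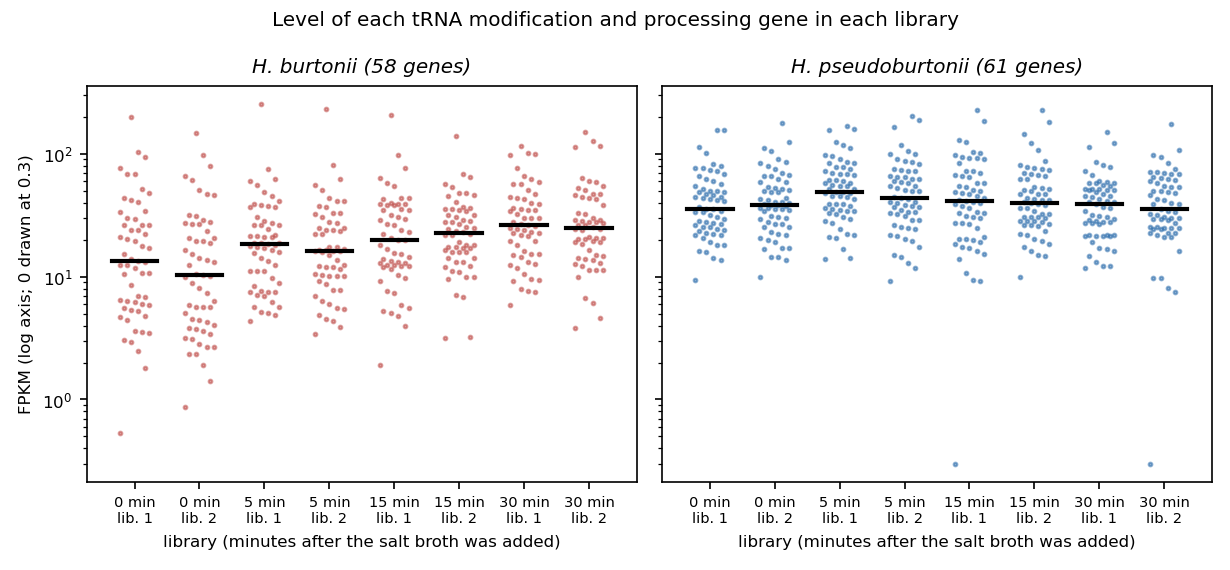
FPKM on a log axis of each tRNA gene (points) in each of the 8 libraries of H. burtonii (left, 58 genes) and H. pseudoburtonii (right, 61 genes), with the median as a bar. The median of H. burtonii goes from 13.3 and 10.3 FPKM at 0 min to 26.3 and 24.9 at 30 min, and a gene of H. pseudoburtonii listed at 0 in 2 libraries is drawn at 0.3.

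Depth was estimated from the smallest nonzero products of FPKM and gene span. It was lowest at 0 min in H. burtonii, 0.541 and 0.464 of the deepest library of the species. In H. pseudoburtonii it was highest at 0 min, 0.974 and 1, against 0.267 to 0.505 later. In H. burtonii 42 of the 58 genes were lower in library 2 of 0 min than in library 1. The part of depth and of this library in the results was not tested beyond leaving out libraries. ACT1, the actin gene, passed the threshold at 0 of the 3 later times in either species, with adjusted p of 0.0797 to 0.272 in H. burtonii and 0.0790 to 0.930 in H. pseudoburtonii (limma). No label says if the paired libraries of 1 harvest are from different cultures, and p-values thus measure the spread between these libraries only.

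In H. burtonii the number of tRNA genes called higher on the deposited values grew with each harvest, as did the share of all tested genes. A gene was called, and is said to have risen or fallen, where limma's p-value on log2(FPKM + 1), adjusted by the method of Benjamini and Hochberg over all tested genes of the species, was under 0.05. A call is on the deposited values where no scaling is named. Against 0 min, 10 genes were higher and 2 lower at 5 min, beside 11.2% and 11.1% of all tested genes, and 22 were higher and 3 lower at 15 min, beside 22.8% and 6.93%. At 30 min 39 of the 58 (67.2%) were higher and 2 lower, beside 37.0% and 11.1% of all tested genes. In all, 43 of the 58 were called at 1 time or more and 8 were higher at all 3 times. The like shares of all tested genes are not given here, but at 30 min alone 37.0% were higher and 11.1% lower. All tested genes shifted up as well, by a median of 0.39 at 15 min and 0.56 at 30 min on the log2 scale, and the median of the tRNA genes lay above that of all genes by 0.38, 0.36 and 0.49 at 5, 15 and 30 min. With libraries scaled to a common median ratio, which removes that shift, 12 were higher and 4 lower at 15 min and 15 higher and 4 lower at 30 min, and with quantile scaling 2 and 4 and then 12 and 3. Under median-ratio scaling 11.7% and 12.3% of all tested genes were higher and lower at 15 min, and 16.9% and 18% at 30 min. Under quantile scaling these shares were 9.1% and 10.4%, then 16.3% and 16.8%. The 2 genes higher at 15 min under quantile scaling were 3.4% of the 58, a smaller share than that of all genes. At 5 min 9 were higher and 2 lower under median-ratio scaling, beside 11.6% and 11.1% of all tested genes. Quantile scaling gave 6 higher and 2 lower at 5 min, beside 9.2% and 10.8%, so the number higher did not grow with each harvest there. The gap between the medians was 0.38 and 0.51 at 15 and 30 min under median-ratio scaling and 0.24 and 0.43 under quantile scaling. The number called at 30 min was 18 without library 1 of 30 min, 21 without library 2 of 30 min and 27 without library 2 of 0 min, the number at 5 min was 1 without either 5 min library, and that at 15 min was 12 without library 2 of 15 min and 16 without either 5 min library.

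In H. pseudoburtonii few of the tRNA genes were called. At 5 min 2 of 61 were higher, beside 4.17% of all tested genes, and 0 were lower by limma, beside 4.55%. The number with an unadjusted p under 0.05 at 5 min, in either direction, was 13. The like shares of all tested genes are not given here, for this count or for the unadjusted counts of role lists below. At 15 min 6 were higher and 3 lower, beside 9.9% and 7.8%. At 30 min, when 25.8% of all tested genes were higher and 9.69% lower, 4 of the tRNA genes were higher (6.6%) and 5 lower (8.2%). The median of the tRNA genes was above that of all genes by 0.22 at 5 min and 0.03 at 15 min and stood at -0.44 relative to it at 30 min. The median of all genes had shifted by 0.12, 0.10 and 0.39. Under median-ratio scaling 3 were higher and 5 lower at 15 min and 1 higher and 12 lower at 30 min, and under quantile scaling 3 and 5 and then 1 and 19, with gaps of -0.46 and -0.65 at 30 min. Of all tested genes 8.1% and 9.5% were higher and lower at 15 min and 15.2% and 17.1% at 30 min under median-ratio scaling. Under quantile scaling these shares were 8.5% and 8%, then 14.5% and 15.1%. Without library 1 or 2 of 0 min, the number called at 15 min was 2 and that at 30 min 5 and 4. It was also 2 at 15 min without library 1 of 15 min, 5 without either 30 min library, and 4 at 30 min without either 30 min library, and 0 were called at 5 min without library 1 of 5 min or either library of 0 or 30 min and 1 without library 2 of 5 min.

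**Figure D2:**
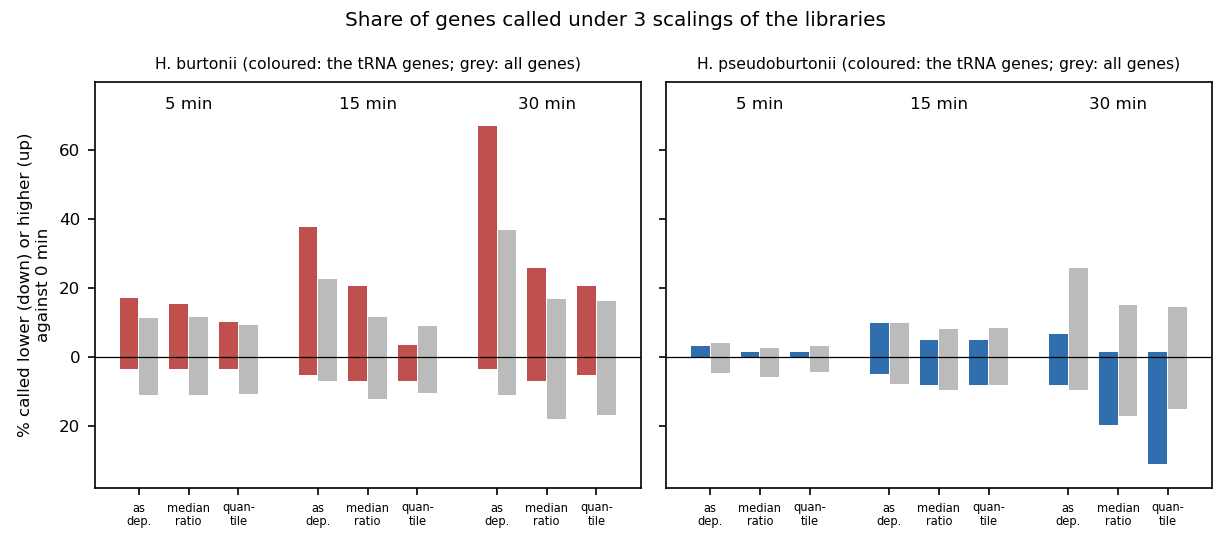
Percent of genes called higher (bars up) or lower (bars down) than at 0 min, for the tRNA genes (coloured) and all tested genes (grey), on the values as deposited and under 2 other scalings. In H. burtonii 67.2% of the tRNA genes are higher at 30 min on the deposited values beside 37.0% of all genes, and in H. pseudoburtonii 6.6% beside 25.8%.

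The largest rises of H. burtonii at 30 min were those of TRM11 and TRM6, which methylate the body of the tRNA. Of the 18 genes of the methylation list 5 were higher at 5 min, 8 at 15 min and 14 at 30 min, beside 11.2%, 22.8% and 37.0% of all tested genes. Under median-ratio and quantile scaling 6 and 1 were higher at 15 min and 6 and 5 at 30 min. TRM11, which with a partner protein methylates a guanine of the body of the tRNA (chromosome 1, 1871987 to 1873300), read 6.27 and 3.41 FPKM at 0 min, 4.84 and 5.99 at 5 min, 16.9 and 19.2 at 15 min and 32.2 and 28.8 at 30 min. Both 15 min and both 30 min libraries lay above both 0 min libraries. It rose by 1.75 (SE 0.297, adjusted p = 0.00549) at 15 min and by 2.47 (SE 0.297, adjusted p = 0.000576) at 30 min, the former a call that missed the threshold under quantile scaling. TRM6, the subunit without the active site of the adenine methylase that also holds TRM61, read 6.46 and 4.05 FPKM at 0 min, 11.1 and 10.1 at 5 min, 19.98 and 17.1 at 15 min and 35.2 and 29.8 at 30 min, and each harvest lay above the one before it. It rose by 2.44 (SE 0.27, adjusted p = 0.000373) at 30 min. TRM61, the catalytic subunit, read 40.3 and 19.7 FPKM at 0 min, 37.1 and 30.6 at 5 min, 63.01 and 48.3 at 15 min and 58.6 and 63.6 at 30 min, and it rose by 1.09 (SE 0.33, adjusted p = 0.0276), a call that missed the threshold without either library of 30 min or library 2 of 0 min, with an adjusted p up to 0.119, and under both other scalings. Its value was 1.58 without library 1 and 0.59 without library 2 of 0 min. TRM44, which methylates the ribose of a uridine in serine tRNA, read 4.796 and 5.91 FPKM at 0 min and 36.4 and 19.2 FPKM at 30 min and rose by 2.12 (SE 0.35, adjusted p = 0.00227). TRM10, a methylase of a guanine near the start of the molecule, read 20.1 and 8.92 FPKM at 0 min and 51.1 and 46.3 FPKM at 30 min and rose by 1.78 (SE 0.38, adjusted p = 0.00697). The 30 min rises of TRM11, TRM6, TRM44 and TRM10 held under both other scalings and with each library left out in turn.

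TRM8 and TRM82 form the methylase that makes methylguanosine in the variable loop. TRM8 read 5.33 and 0.864 FPKM at 0 min, 18.3 and 17.4 at 5 min, 9.72 and 21.9 at 15 min and 9.29 and 12.2 at 30 min in H. burtonii, so library 2 of 0 min was under 1 FPKM and the later libraries were all above both 0 min libraries. It rose by 2.46 (SE 0.58, adjusted p = 0.0238) at 5 min and 1.76 (SE 0.58, adjusted p = 0.0378) at 30 min. Without library 1 of 0 min these values were 3.34 and 2.64, and without library 2 of 0 min 1.58 and 0.88. The 5 min call missed the threshold without either library of 5 min, with an adjusted p up to 0.128, and the 30 min call missed the threshold without either library of 5 or 30 min or library 2 of 0 min, with an adjusted p up to 0.157, and under both other scalings. TRM82 read 7.02 and 10.2 FPKM at 0 min, 18.8 and 16.5 at 5 min, 12.3 and 23.2 at 15 min and 15.4 and 11.4 at 30 min and was not called. TRM2, which methylates the uracil of the T loop, rose by 1.74 (SE 0.35, adjusted p = 0.00982) at 15 min and 1.57 (SE 0.35, adjusted p = 0.00777) at 30 min, from 6.001 and 3.86 FPKM at 0 min to 18.1 and 14.8 at 30 min. The first of these calls missed the threshold without library 2 of 15 min, with an adjusted p of 0.0539, and under quantile scaling, and the second missed the threshold without library 1 of 30 min, with an adjusted p of 0.0565, and under quantile scaling. TRM3, a ribose methylase and with TRM732 and TAD1 among the 3 genes of lowest mean, read 1.82 and 2.35 FPKM at 0 min, 6.23 and 6.31 at 5 min, 1.92 and 3.17 at 15 min and 7.49 and 3.83 at 30 min.

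In H. pseudoburtonii the methylation list of 18 had 1 gene higher at 5 min, 3 higher and 1 lower at 15 min and 1 higher and 2 lower at 30 min. Of all tested genes 4.17% were higher at 5 min, 9.9% higher and 7.8% lower at 15 min and 25.8% and 9.69% at 30 min. Under median-ratio and quantile scaling 1 gene of the list was higher at 30 min and 5 and 6 were lower. Of all tested genes 17.1% and 15.1% were lower under these scalings. TRM11 read 51.5 and 43.6 FPKM at 0 min, 90.7 and 105 at 5 min, 102 and 41.8 at 15 min and 36.5 and 24.7 at 30 min and TRM6 47.5 and 38.5 FPKM at 0 min, 68.9 and 64.3 at 5 min, 47.4 and 36.2 at 15 min and 36.8 and 48.3 at 30 min, and neither was called at any time. TRM82 read 101 and 105 FPKM at 0 min, 119 and 90.7 at 5 min, 57.5 and 69.2 at 15 min and 47.2 and 42.9 at 30 min, with both 30 min libraries below all earlier ones. It fell by 1.17 (SE 0.21, adjusted p = 0.0052) on the log2 scale at 30 min, which held under both scalings and with each library left out. Its partner TRM8 read 74.6 and 91.5 FPKM at 0 min, 125 and 100.4 at 5 min, 38.9 and 73.9 at 15 min and 54.99 and 60.6 at 30 min and was not called. TRM1, which dimethylates a guanine of the body, read 34.5 and 36.4 FPKM at 0 min, 58.2 and 57.8 at 5 min, 64.8 and 77.6 at 15 min and 40.7 and 24.4 at 30 min in H. pseudoburtonii and 6.803 and 7.35 FPKM at 0 min, 18.2 and 16.3 at 5 min, 15.4 and 21.8 at 15 min and 12.6 and 11.4 at 30 min in H. burtonii. It rose by 0.98 (SE 0.28, adjusted p = 0.0469) at 15 min in the former and by 1.26 (SE 0.25, adjusted p = 0.00983) in the latter, and was the only paired gene called higher in both species at 15 min on the deposited values, which it was not under either other scaling. The H. pseudoburtonii call missed the threshold without either library of 0, 5 or 15 min, with an adjusted p up to 0.217, and under both other scalings, and the H. burtonii call missed the threshold without library 2 of 15 min, with an adjusted p of 0.0541, and under quantile scaling. TRM13, a methylase of the acceptor stem, rose by 1.23 (SE 0.35, adjusted p = 0.0481) at 15 min in H. pseudoburtonii, a call that missed the threshold without either library of 0, 15 or 30 min, with an adjusted p up to 0.258, and under both other scalings.

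**Figure D3:**
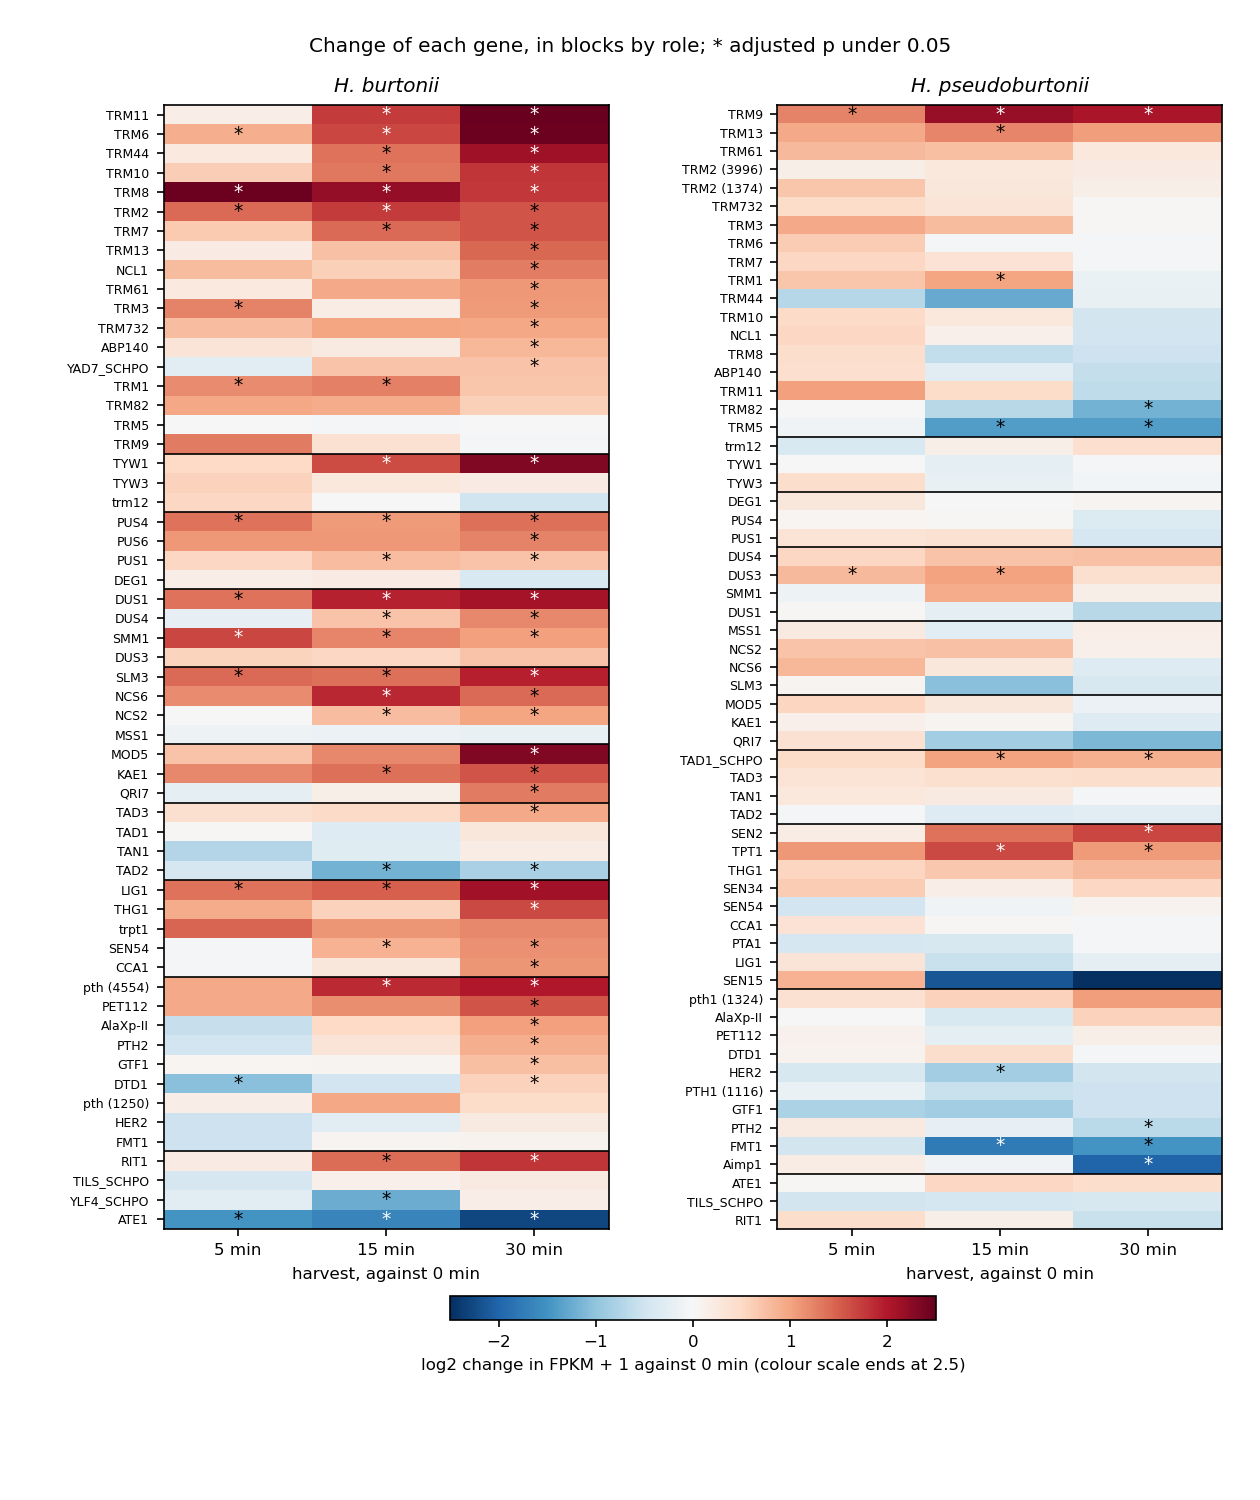
Log2 change of each tRNA gene against 0 min at 5, 15 and 30 min, red for higher and blue for lower, with * at an adjusted p under 0.05. From the top the blocks are methylation, wybutosine, pseudouridine, dihydrouridine, thiolation and wobble uridine, threonylcarbamoyl and isopentenyl adenosine, deamination and acetylation, splicing and end processing, charged and mischarged tRNA, and other genes, each ordered by its 30 min change. Digits after a name are the end of the identifier. Of the H. burtonii column for 30 min, 39 genes are called higher and 2 lower, and of that of H. pseudoburtonii 4 and 5. SEN15, listed at 0 in 2 libraries, takes the dark blue cells of H. pseudoburtonii with no call.

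The anticodon loop of phenylalanine tRNA is methylated by TRM5 and then carried on to wybutosine by TYW1, the TRM12 product and TYW3. In H. burtonii TYW1 read 4.43 and 2.66 FPKM at 0 min, 5.62 and 4.91 at 5 min, 12.4 and 13.2 at 15 min and 23.1 and 19.2 at 30 min, and both libraries of each later time from 15 min lay above all earlier libraries. It rose by 1.63 (SE 0.28, adjusted p = 0.0058) at 15 min and 2.31 (SE 0.28, adjusted p = 0.000617) at 30 min, of which the former missed the threshold under quantile scaling and the latter held in both scalings and with each library left out. Its neighbours in the pathway did not share that call. TYW3 read 17.7 and 18.8 FPKM at 0 min, 28.3 and 27.2 at 5 min, 27.04 and 18.2 at 15 min and 21.8 and 20.7 at 30 min. The gene named trm12, which had the highest mean of the 58 genes, read 198 and 147 FPKM at 0 min, 255 and 234 at 5 min, 208 and 139 at 15 min and 97.3 and 149.6 at 30 min. TRM5 read 22.2 and 27.2 FPKM at 0 min, 24.4 and 24.9 at 5 min, 22.95 and 25.05 at 15 min and 30.3 and 20.4 at 30 min in H. burtonii and 82.1 and 65.7 FPKM at 0 min, 72.3 and 66.1 at 5 min, 18.6 and 40.05 at 15 min and 21.8 and 33.9 at 30 min in H. pseudoburtonii, where the 15 and 30 min libraries lay below those of 0 and 5 min. There it fell by 1.39 (SE 0.38, adjusted p = 0.0436) on the log2 scale at 15 min and fell by 1.401 (SE 0.38, adjusted p = 0.0248) at 30 min. The first call missed the threshold without either library of 0, 5 or 30 min or library 1 of 15 min, with an adjusted p up to 0.229, and the second missed the threshold without either library of 0 or 30 min, with an adjusted p up to 0.145. The 15 min change was -0.86 without library 1 and -1.93 without library 2 of 15 min. TYW1 of H. pseudoburtonii read 54.3 and 52.996 FPKM at 0 min, 55.6 and 53.1 at 5 min, 48.7 and 42.98 at 15 min and 45.5 and 60.8 at 30 min, and 0 of the 3 genes of its wybutosine list were called by limma at any time, with an unadjusted p under 0.05 for 0, 0 and 0 at 5, 15 and 30 min. TRM7, which methylates riboses of the anticodon loop, rose in H. burtonii by 1.41 (SE 0.24, adjusted p = 0.00553) at 15 min and 1.57 (SE 0.24, adjusted p = 0.00166) at 30 min, from 12.5 and 10.4 FPKM to 39.8 and 32.4, and both calls held under both scalings and with each library left out. Its partner TRM732 read 2.49 and 1.89 FPKM at 0 min, 5.06 and 3.87 at 5 min, 3.996 and 6.88 at 15 min and 5.92 and 4.597 at 30 min and rose by 0.97 (SE 0.34, adjusted p = 0.0465) at 30 min, a call that missed the threshold without either library of 0, 5 or 30 min, with an adjusted p up to 0.193, and under both other scalings.

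At the wobble uridine of the anticodon, Elongator and TRM9 build a side chain and NCS2 and NCS6 add sulfur in the cytosol, while SLM3 adds sulfur and MSS1 helps to add a side chain in mitochondria. TRM9 was the strongest riser of H. pseudoburtonii (chromosome 3, 1326781 to 1327605) and read 25.4 and 25.4 FPKM at 0 min, 75.7 and 50.1 at 5 min, 98.04 and 144 at 15 min and 122 and 93.97 at 30 min. All later libraries lay above both 0 min libraries. It rose by 1.25 (SE 0.29, adjusted p = 0.0402) at 5 min, 2.18 (SE 0.29, adjusted p = 0.00272) at 15 min and 2.03 (SE 0.29, adjusted p = 0.00195) at 30 min, the only gene of the 61 higher at all 3 times. The 15 and 30 min calls held under both scalings and with each library left out, and the 5 min call missed the threshold without either library of 0 or 30 min or library 1 of 5 min, with an adjusted p up to 0.205. In H. burtonii TRM9 read 34.3 and 14.1 FPKM at 0 min, 55.9 and 55.5 at 5 min, 31.5 and 26.6 at 15 min and 16.3 and 27.8 at 30 min, was highest at 5 min and was not called. SLM3 of H. burtonii read 3.51 and 2.68 FPKM at 0 min, 11.1 and 8.68 at 5 min, 9.27 and 9.95 at 15 min and 11.7 and 18.5 at 30 min, with every later library above both 0 min libraries. It rose by 1.95 (SE 0.302, adjusted p = 0.00175) at 30 min, which held under both scalings and with each library left out. NCS6 read 5.53 and 3.76 FPKM at 0 min, 11.2 and 12.003 at 5 min, 12.96 and 29.1 at 15 min and 15.1 and 12.7 at 30 min and rose by 1.88 (SE 0.38, adjusted p = 0.0104) at 15 min and 1.41 (SE 0.38, adjusted p = 0.0179) at 30 min. The former call missed the threshold under quantile scaling, and the latter missed the threshold without either library of 30 min or library 2 of 0 min, with an adjusted p up to 0.0963, and under both other scalings. NCS2 read 19.6 and 13.8 FPKM at 0 min, 15.8 and 17.4 at 5 min, 26.1 and 31.7 at 15 min and 34.2 and 32.8 at 30 min and rose by 0.98 (SE 0.24, adjusted p = 0.0116) at 30 min, a call that missed the threshold without either library of 30 min, with an adjusted p up to 0.0649, and under both other scalings. MSS1 read 51.4 and 47.1 FPKM at 0 min, 45.3 and 44.1 at 5 min, 43.9 and 45.01 at 15 min and 43.01 and 43.7 at 30 min, a narrow range, and was not called on the deposited values. In H. pseudoburtonii NCS2 read 23.6 and 17.1 FPKM at 0 min, 36.6 and 31.03 at 5 min, 36.1 and 32.5 at 15 min and 21.5 and 22.6 at 30 min and SLM3 49.7 and 39.1 FPKM at 0 min, 38.9 and 54.6 at 5 min, 14.04 and 30.5 at 15 min and 27.99 and 39.3 at 30 min, and 0 of the 4 genes of the thiolation and wobble uridine list were called by limma, with an unadjusted p under 0.05 for 1, 2 and 0 at 5, 15 and 30 min.

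Beside the anticodon, MOD5 adds an isopentenyl group to an adenine, and KAE1 in the cytosol and QRI7 in mitochondria add threonylcarbamoyl to another. All 3 were higher at 30 min in H. burtonii on the deposited values, beside 37.0% of all tested genes, and 1 of them, MOD5, was under either other scaling. MOD5 read 8.56 and 2.82 FPKM at 0 min, 7.63 and 10.4 at 5 min, 12.6 and 13.2 at 15 min and 29.9 and 28.2 at 30 min, with both 30 min libraries more than 2-fold above every other library, and rose by 2.31 (SE 0.41, adjusted p = 0.00321) at 30 min. The value was 2.97 without library 1 and 1.65 without library 2 of 0 min, and the call held with each library left out and under both scalings. KAE1 read 14.1 and 5.62 FPKM at 0 min, 21.4 and 22.2 at 5 min, 35.2 and 17.5 at 15 min and 29.9 and 27.9 at 30 min and rose by 1.58 (SE 0.44, adjusted p = 0.0195), which became 2.17 without library 1 of 0 min and 0.99 without library 2, and missed the threshold without either library of 30 min or library 2 of 0 min, with an adjusted p up to 0.0923, and under both other scalings. QRI7 read 13.2 and 8.15 FPKM at 0 min, 9.69 and 7.85 at 5 min, 12.02 and 11.2 at 15 min and 25.1 and 28.9 at 30 min, and only the 30 min libraries stood above both 0 min libraries. It rose by 1.29 (SE 0.28, adjusted p = 0.00731) at 30 min, a call that missed the threshold without library 2 of 30 min, with an adjusted p of 0.0525, and under both other scalings. In H. pseudoburtonii 0 of the 3 were called by limma, with an unadjusted p under 0.05 for 0, 1 and 1 at 5, 15 and 30 min, and 1 and 2 were lower at 30 min under median-ratio and quantile scaling. QRI7 there read 27.8 and 19.97 FPKM at 0 min, 27.5 and 34.7 at 5 min, 15.4 and 9.99 at 15 min and 13.2 and 8.04 at 30 min, and MOD5 25.2 and 26.97 FPKM at 0 min, 45.5 and 32.4 at 5 min, 33.1 and 30.5 at 15 min and 21.98 and 25.3 at 30 min.

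Dihydrouridine synthases and pseudouridine synthases reduce or rearrange uridines of the loops. In H. burtonii 2, 3 and 3 of the 4 dihydrouridine synthases and 1, 2 and 3 of the 4 pseudouridine synthases were higher at 5, 15 and 30 min, beside 11.2%, 22.8% and 37.0% of all tested genes. Under median-ratio scaling 2, 2 and 2 dihydrouridine and 1, 0 and 1 pseudouridine synthases were higher, and under quantile scaling 2, 1 and 1 and 1, 0 and 1. DUS1 read 2.94 and 2.33 FPKM at 0 min, 8.87 and 7.799 at 5 min, 13.4 and 12.3 at 15 min and 12.4 and 16.5 at 30 min, and every later library was above both 0 min libraries. It rose by 1.93 (SE 0.26, adjusted p = 0.00228) at 15 min and 2.08 (SE 0.26, adjusted p = 0.000702) at 30 min, and both calls held under both scalings and with each library left out. SMM1 was highest at 5 min, reading 10.5 and 10.4 FPKM at 0 min, 38.4 and 33.1 at 5 min, 23.9 and 27.8 at 15 min and 23.9 and 21.01 at 30 min, with no overlap between 0 min and any later time. It rose by 1.68 (SE 0.21, adjusted p = 0.00257) at 5 min, the only 5 min call among the 58 that held both under both scalings and with each library left out. Its rise was 1.03 (SE 0.21, adjusted p = 0.00574) at 30 min, a call that held with each library left out and missed the threshold under both other scalings. DUS4 read 10.8 and 9.901 FPKM at 0 min and 24.3 and 25.4 FPKM at 30 min and rose by 1.19 (SE 0.21, adjusted p = 0.00316), which held with each library left out and under median-ratio but not quantile scaling. PUS4, which makes the pseudouridine of the T loop, read 26.4 and 20.6 FPKM at 0 min, 60.6 and 61.95 at 5 min, 54.7 and 45.9 at 15 min and 62.97 and 60.7 at 30 min and stayed above 0 min from 5 min on. It rose by 1.37 (SE 0.1999, adjusted p = 0.00135) at 30 min, which held under both scalings and with each library left out. PUS1 read 29.8 and 27.9 FPKM at 0 min and 44.3 and 51.3 FPKM at 30 min and rose by 0.71 (SE 0.202, adjusted p = 0.0223), a call that missed the threshold without either library of 30 min or library 2 of 0 min, with an adjusted p up to 0.123, and under both other scalings.

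In H. pseudoburtonii DUS3 was the dihydrouridine synthase that passed the threshold. It read 41.9 and 40.3 FPKM at 0 min, 70.3 and 74.6 at 5 min, 92.4 and 74.7 at 15 min and 55.6 and 53.7 at 30 min, with the libraries of each later time above both 0 min libraries. DUS3 rose by 0.802 (SE 0.198, adjusted p = 0.0477) at 5 min and 0.998 (SE 0.198, adjusted p = 0.0149) at 15 min. The 5 min call missed the threshold without either library of 0, 5 or 30 min, with an adjusted p up to 0.257, and under both other scalings, and the 15 min call missed the threshold without either library of 0 min or library 1 of 15 min, with an adjusted p up to 0.106. In H. burtonii DUS3 read 3.04 and 6.29 FPKM at 0 min, 7.03 and 6.92 at 5 min, 4.76 and 9.48 at 15 min and 9.47 and 6.66 at 30 min and was not called. DUS4 was among the 3 lowest genes of H. pseudoburtonii, with 9.44 and 13.7 FPKM at 0 min, 14.2 and 19.7 at 5 min, 9.45 and 38.3 at 15 min and 11.7 and 31.8 at 30 min, where the 2 libraries of 15 and of 30 min were far apart. PUS1 and NCL1, a cytosine methylase, were among the 3 highest, and PUS1 read 158 and 125 FPKM at 0 min, 159 and 202 at 5 min, 185 and 181 at 15 min and 113 and 98.3 at 30 min and NCL1 113 and 112 FPKM at 0 min, 155 and 166 at 5 min, 125 and 123 at 15 min and 86.4 and 75.2 at 30 min.

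Adenosine deaminases turn adenine into inosine, TAD2 with TAD3 at the wobble position and TAD1 beside the anticodon of alanine tRNA. The subunits TAD2 and TAD3 differed in direction in H. burtonii. TAD2 read 93.6 and 61.6 FPKM at 0 min, 62.7 and 50.7 at 5 min, 38.7 and 27.7 at 15 min and 38.9 and 46.95 at 30 min, with all 15 and 30 min libraries below all earlier ones, and TAD3 read 67.999 and 50.7 FPKM at 0 min, 75.5 and 80.9 at 5 min, 97.8 and 68.6 at 15 min and 102 and 127 at 30 min. TAD2 fell by 1.19 (SE 0.27, adjusted p = 0.0166) on the log2 scale at 15 min and fell by 0.82 (SE 0.27, adjusted p = 0.0403) at 30 min, both of which held under both scalings. The first call missed the threshold without library 1 of 0 min or library 2 of 15 min, with an adjusted p up to 0.0852, and the second missed the threshold without either library of 5 or 30 min or library 1 of 0 min, with an adjusted p up to 0.184. The 30 min change was -0.52 without library 1 and -1.11 without library 2 of 0 min. TAD3 rose by 0.94 (SE 0.24, adjusted p = 0.0151) at 30 min, which missed the threshold without library 2 of 0 min or library 2 of 30 min, with an adjusted p up to 0.0978, and under both other scalings. In H. pseudoburtonii TAD2 read 35.5 and 42.1 FPKM at 0 min, 37.6 and 38.5 at 5 min, 27.4 and 34.1 at 15 min and 30.4 and 34.01 at 30 min and TAD3 76.7 and 58.9 FPKM at 0 min, 83.8 and 86.6 at 5 min, 92.3 and 86.8 at 15 min and 78.1 and 107 at 30 min, with neither called. The gene named TAD1_SCHPO there read 22.2 and 16.8 FPKM at 0 min, 32.8 and 21.8 at 5 min, 39.6 and 40.3 at 15 min and 34.04 and 38.99 at 30 min and rose by 1.01 (SE 0.29, adjusted p = 0.0485) at 15 min and 0.88 (SE 0.29, adjusted p = 0.0466) at 30 min. The first call missed the threshold without either library of 0, 15 or 30 min, with an adjusted p up to 0.266, and under both other scalings, and the second missed the threshold without either library of 0, 15 or 30 min, with an adjusted p up to 0.242, and under both other scalings. TAD1 of H. burtonii read 5.87 and 5.04 FPKM at 0 min, 5.66 and 5.48 at 5 min, 5.296 and 3.201 at 15 min and 7.61 and 6.07 at 30 min and was not called.

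Intron removal uses the SEN endonuclease, the ligase LIG1 and the phosphotransferase TPT1, and CCA1 adds the CCA end. The ligase is known in S. cerevisiae also for joining the exons of a messenger RNA of the unfolded protein response. In H. burtonii LIG1 (chromosome 2, 1936145 to 1938657) read 6.34 and 5.69 FPKM at 0 min, 17.7 and 16.2 at 5 min, 15.7 and 22.5 at 15 min and 35.4 and 23.8 at 30 min, with every later library more than 2-fold above both 0 min libraries. It rose by 1.36 (SE 0.28, adjusted p = 0.0158) at 5 min, 1.496 (SE 0.28, adjusted p = 0.00788) at 15 min and 2.1001 (SE 0.28, adjusted p = 0.000904) at 30 min. The 30 min call held under both scalings and with each library left out, the 15 min call held with each library left out but not under quantile scaling, and the 5 min call missed the threshold without either library of 5 min, with an adjusted p up to 0.112. CCA1 read 26.4 and 26.7 FPKM at 0 min, 27.5 and 23.9 at 5 min, 30.7 and 34.8 at 15 min and 56.6 and 59.3 at 30 min, with both 30 min libraries above all others, and rose by 1.099 (SE 0.19, adjusted p = 0.00272) at 30 min, which held under both scalings and with each library left out. SEN54, a structural subunit of the endonuclease, read 23.8 and 15.4 FPKM at 0 min and 43.98 and 42.9 FPKM at 30 min and rose by 1.14 (SE 0.27, adjusted p = 0.0101), a call that missed the threshold without either library of 30 min, with an adjusted p up to 0.0584, and under both other scalings. In all 1, 2 and 4 of the 5 genes of the list were higher at 5, 15 and 30 min, beside 11.2%, 22.8% and 37.0% of all tested genes, with 1, 1 and 2 under median-ratio and 1, 0 and 2 under quantile scaling.

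Of the 9 splicing and end processing genes of H. pseudoburtonii 0, 1 and 2 were higher at 5, 15 and 30 min. Beside them stood 4.17%, 9.9% and 25.8% of all tested genes. At 30 min 0 of the 9 were higher under either other scaling. TPT1 read 27.3 and 36.2 FPKM at 0 min, 54.8 and 82.9 at 5 min, 130.5 and 76.9 at 15 min and 81.2 and 54.5 at 30 min, with all later libraries above both 0 min libraries. It rose by 1.64 (SE 0.35, adjusted p = 0.0188) at 15 min, a call that missed the threshold without either library of 0 min or library 1 of 15 min, with an adjusted p up to 0.134, and by 1.06 (SE 0.35, adjusted p = 0.0495) at 30 min, a call that missed the threshold without either library of 0, 5 or 30 min, with an adjusted p up to 0.245, and under both other scalings. SEN2, a catalytic subunit of the endonuclease, read 16.02 and 14.4 FPKM at 0 min, 32.1 and 9.25 at 5 min, 37.6 and 43.5 at 15 min and 51.5 and 49.6 at 30 min and rose by 1.67 (SE 0.49, adjusted p = 0.033) at 30 min. That call missed the threshold without either library of 0 or 30 min, with an adjusted p up to 0.14, and under both other scalings. SEN34, the other catalytic subunit, read 44.9 and 37.5 FPKM at 0 min, 66.9 and 62.3 at 5 min, 45.6 and 46.7 at 15 min and 60.7 and 58.3 at 30 min, and SEN54 49.9 and 62.8 FPKM at 0 min, 43.1 and 37.1 at 5 min, 65.7 and 42.4 at 15 min and 51.9 and 68.1 at 30 min. The structural subunit SEN15 was listed at 0 in library 1 of 15 min and library 2 of 30 min and read 30.6 and 16.04 FPKM in the other libraries of those times, after 16.1 and 34.7 at 0 min and 48.1 and 40.8 at 5 min. A value of 0 beside such values can be a failed estimate, and no fold is given for it. LIG1 of H. pseudoburtonii read 30.9 and 30.6 FPKM at 0 min, 45.3 and 33.03 at 5 min, 19.2 and 22.1 at 15 min and 26.9 and 24.8 at 30 min and CCA1 62.4 and 69.9 FPKM at 0 min, 95.2 and 75.4 at 5 min, 71.9 and 62.7 at 15 min and 67.2 and 63.1 at 30 min, and neither was called.

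The genes that act on charged or mischarged tRNA include formylation, hydrolysis and editing steps. In H. burtonii 6 of 9 were higher at 30 min on the deposited values, beside 37.0% of all tested genes, and each of these 6 calls was lost under both median-ratio and quantile scaling. In H. pseudoburtonii 3 of 10 were lower, beside 9.69% of all tested genes, and 4 and 5 under those scalings. FMT1, which formylates the initiator methionyl-tRNA of mitochondria, read 68.5 and 66.2 FPKM at 0 min, 47.7 and 49.4 at 5 min, 19.8 and 18.4 at 15 min and 21.6 and 25.03 at 30 min in H. pseudoburtonii, with the 15 and 30 min libraries all below those of 0 and 5 min. It fell by 1.77 (SE 0.22, adjusted p = 0.00221) on the log2 scale at 15 min and fell by 1.495 (SE 0.22, adjusted p = 0.00233) at 30 min, and both calls held under both scalings and with each library left out. In H. burtonii FMT1 read 42.2 and 28.7 FPKM at 0 min, 26.2 and 22.1 at 5 min, 35.7 and 36.96 at 15 min and 56.7 and 24.2 at 30 min and was not called. Aimp1, whose mammalian namesake is a scaffold of the synthetase complex, read 49.3 and 48.9 FPKM at 0 min, 61.4 and 50.7 at 5 min, 40.9 and 51.6 at 15 min and 17.2 and 7.55 at 30 min in H. pseudoburtonii. It fell by 2.01 (SE 0.37, adjusted p = 0.0054) at 30 min, which held under both scalings and with each library left out. HER2, a subunit of the mitochondrial amidotransferase, read 43.8 and 40.9 FPKM at 0 min, 35.1 and 29.1 at 5 min, 20.2 and 25.8 at 15 min and 31.6 and 29.4 at 30 min there and fell by 0.86 (SE 0.25, adjusted p = 0.0499) at 15 min, a call that missed the threshold without either library of 0 or 30 min or library 1 of 15 min, with an adjusted p up to 0.251. PTH2, which frees tRNA from peptides, read 66.2 and 75.6 FPKM at 0 min and 45.4 and 42.3 FPKM at 30 min there and fell by 0.68 (SE 0.22, adjusted p = 0.0441), a call that missed the threshold without either library of 0 or 30 min, with an adjusted p up to 0.223. In H. burtonii PTH2 read 68.4 and 46.4 FPKM at 0 min and 99.9 and 113 FPKM at 30 min and rose by 0.91 (SE 0.26, adjusted p = 0.0239), a call that missed the threshold without either library of 30 min or library 2 of 0 min, with an adjusted p up to 0.119, and under both other scalings.

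DTD1, which removes D-tyrosine from tRNA, was among the 3 highest genes of either species. In H. burtonii it read 76.3 and 79.04 FPKM at 0 min, 37.3 and 37.3 at 5 min, 57.9 and 53.8 at 15 min and 117 and 117 at 30 min, lowest at 5 min and highest at 30 min. It fell by 1.04 (SE 0.16, adjusted p = 0.00611) on the log2 scale at 5 min and was higher by 0.58 (SE 0.16, adjusted p = 0.0205) at 30 min. The 5 min call missed the threshold without either library of 5 min, with an adjusted p up to 0.0667, and the 30 min call missed the threshold without either library of 30 min or library 1 of 0 min, with an adjusted p up to 0.0888, and under both other scalings. In H. pseudoburtonii it read 156 and 179 FPKM at 0 min, 169.7 and 189 at 5 min, 228 and 228 at 15 min and 150.4 and 174 at 30 min and was not called. The editing gene AlaXp-II, which clears mischarged alanine tRNA, read 23.8 and 20.6 FPKM at 0 min, 15.7 and 13.6 at 5 min, 34.9 and 28.5 at 15 min and 47.4 and 44.5 at 30 min in H. burtonii and rose by 1.02 (SE 0.21, adjusted p = 0.00614) at 30 min, which held with each library left out and was lost under both other scalings.

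ATE1 fell at every time in H. burtonii. It passes arginine from charged tRNA to proteins, a step that marks them for breakdown. In H. burtonii (chromosome 6, 907705 to 908796) it read 104 and 98.8 FPKM at 0 min, 38.7 and 32.3 at 5 min, 39.4 and 25.5 at 15 min and 19.4 and 20.6 at 30 min, and all later libraries lay below both 0 min libraries. It fell by 1.49 (SE 0.24, adjusted p = 0.00726) on the log2 scale at 5 min, fell by 1.64 (SE 0.24, adjusted p = 0.00319) at 15 min and fell by 2.28 (SE 0.24, adjusted p = 0.000327) at 30 min. The 15 and 30 min calls held under both scalings and with each library left out, and the 5 min call missed the threshold without either library of 5 min, with an adjusted p up to 0.0787. In H. pseudoburtonii ATE1 read 35.8 and 49.3 FPKM at 0 min, 49.1 and 37.01 at 5 min, 72.9 and 50.1 at 15 min and 51.2 and 64.5 at 30 min and was not called. RIT1, which in S. cerevisiae marks the initiator tRNA with a ribosyl phosphate, read 5.27 and 3.19 FPKM at 0 min, 6.93 and 3.39 at 5 min, 13.1 and 11.95 at 15 min and 19.6 and 14.1 at 30 min in H. burtonii and rose by 1.78 (SE 0.37, adjusted p = 0.00613) at 30 min, a call that missed the threshold without library 1 of 30 min, with an adjusted p of 0.0502, and under quantile scaling. In H. pseudoburtonii it was among the 3 lowest genes and read 19.01 and 14.4 FPKM at 0 min, 20.8 and 25.2 at 5 min, 17.5 and 19.6 at 15 min and 12.1 and 9.84 at 30 min. The uncharacterised YLF4_SCHPO, described as a tRNA-binding protein and matched in H. burtonii, read 29.4 and 23.5 FPKM at 0 min, 16.6 and 27.7 at 5 min, 7.64 and 14.3 at 15 min and 22.8 and 38.02 at 30 min. It fell by 1.25 (SE 0.39, adjusted p = 0.0459) at 15 min, a call that missed the threshold without either library of 5 or 30 min, library 1 of 0 min or library 1 of 15 min, with an adjusted p up to 0.176.

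**Figure D4:**
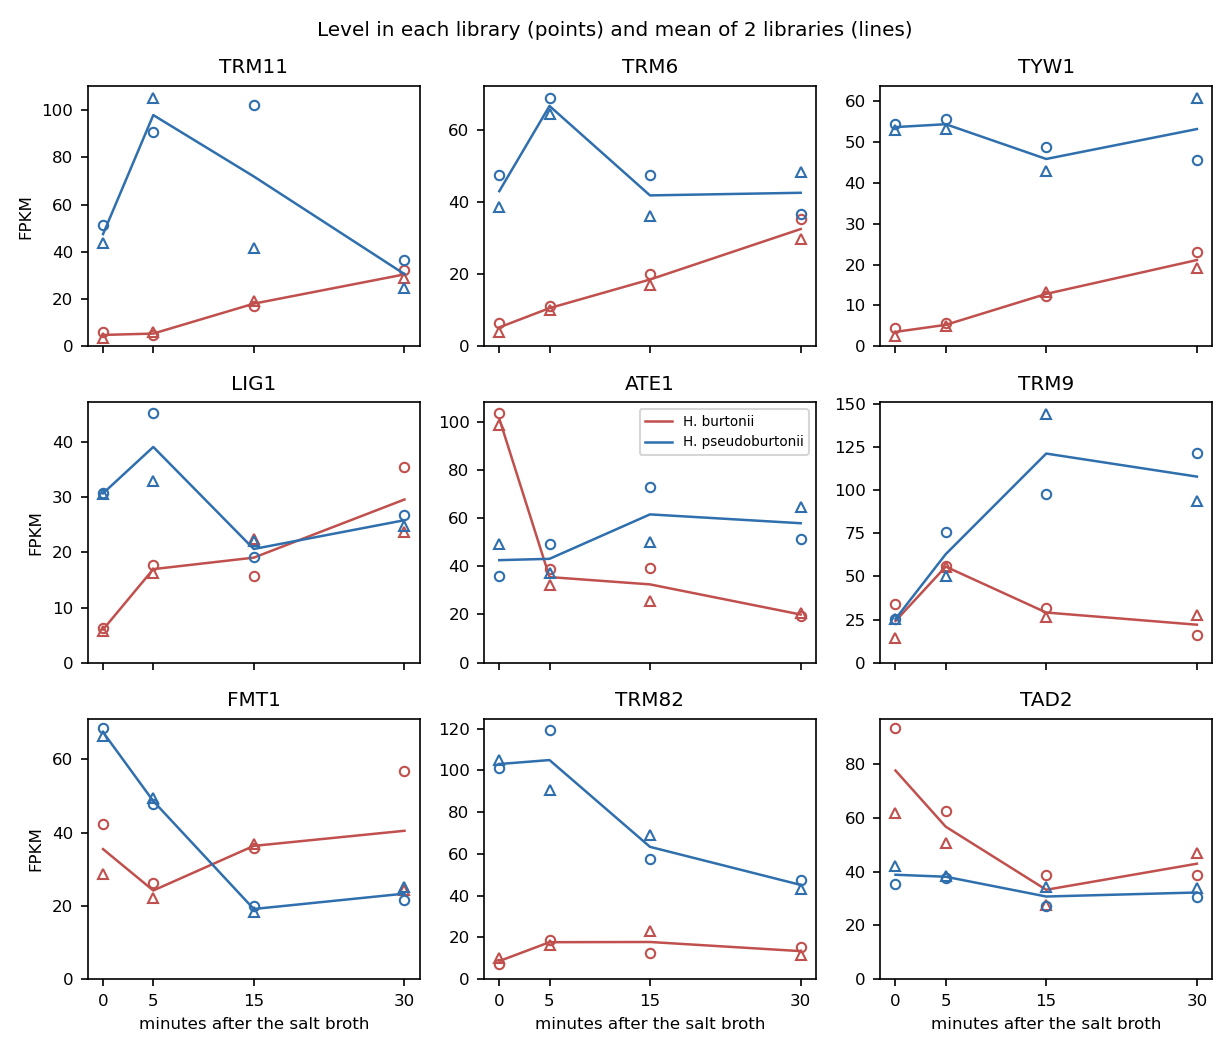
FPKM of 9 tRNA genes against minutes after the salt broth was added, red for H. burtonii and blue for H. pseudoburtonii. Circles are library 1, triangles library 2 and lines the mean of both. TRM11, TRM6, TYW1 and LIG1 climb in H. burtonii, ATE1 drops from 104 and 98.8 FPKM to 19.4 and 20.6 in H. burtonii, TRM9 climbs and FMT1 and TRM82 drop in H. pseudoburtonii.

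The genes called higher in H. burtonii were found at both low and high levels. With the 58 genes divided at their median mean level of 19.3 FPKM, 23 of the 29 below it and 16 of the 29 at or above it were higher at 30 min, and 2 of the latter were lower. The median log2 changes were 1.44 and 0.71, and the difference was not tested. On the log2(FPKM + 1) scale the change of low genes is understated.

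Between successive harvests fewer tRNA genes were called. In H. burtonii 7 were higher at 15 than at 5 min, when 16.1% of all tested genes were higher and 3.95% lower. Under median-ratio scaling 1 was higher, beside 4.5% of all tested genes. Under quantile scaling 1 was higher and 3 lower, beside 5.6% and 6%. At 30 min 4 were higher than at 15 min, when 9.49% of all tested genes were higher and 6.73% lower. Under these scalings 1 and 4 were higher, beside 4.7% and 6.2% of all tested genes. TRM11 had the largest of these steps, 1.58 (SE 0.297, adjusted p = 0.0132) from 5 to 15 min, a call that missed the threshold without either library of 5 min or library 1 of 15 min, with an adjusted p up to 0.103. DTD1 rose by 1.05 (SE 0.16, adjusted p = 0.00574) from 15 to 30 min, a call that missed the threshold without library 1 of 30 min, with an adjusted p of 0.0577. In H. pseudoburtonii FMT1 alone was lower at 15 than at 5 min, when 1.72% of all tested genes were lower and 3.05% higher, with a change of -1.301 (SE 0.22, adjusted p = 0.0223), a call that missed the threshold without either library of 0 or 30 min or library 2 of 5 min, with an adjusted p up to 0.0774. From 15 to 30 min 1 gene was higher and 4 were lower, beside 11.0% and 3.38% of all tested genes. Under median-ratio scaling 10 were lower and under quantile scaling 15, beside 7.1% and 7.2% of all tested genes. Aimp1 stepped by -1.91 (SE 0.37, adjusted p = 0.0194) and TRM1 by -1.14 (SE 0.28, adjusted p = 0.0346). The Aimp1 call missed the threshold without either library of 0 or 30 min, with an adjusted p up to 0.105, and the TRM1 call missed the threshold without either library of 0, 15 or 30 min, with an adjusted p up to 0.167.

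The change of the paired genes was then compared between the strains, with the H. burtonii change taken from the H. pseudoburtonii change, and tested in 1 limma fit over 3399 pairs. At 30 min this difference was below 0 for 44 of the 50 tRNA pairs, while the median over all tested pairs was itself -0.28. The difference was called lower for 25 and higher for 2, beside 23.3% and 12.8% of all tested pairs. At 5 min 1 was lower and 2 higher, beside 7.68% and 7.86%, and at 15 min 10 were lower and 3 higher, beside 14.9% and 5.88%. The median difference of the tRNA pairs at 30 min lay at -0.84 relative to that of all pairs, and at -0.84 and -0.86 under median-ratio and quantile scaling, with 24 and 26 pairs lower and 3 and 2 higher. Of all tested pairs 21% and 20.4% were then lower and 14.3% and 12.4% higher. At 15 min 9 and 5 were lower under these scalings and 3 higher. There 10.9% and 8.7% of all tested pairs were lower and 8.8% and 8.7% higher. Leaving out 1 library at a time gave 20 to 29 called pairs at 30 min. By the sign of the change, 31 of the 50 genes went up in H. burtonii and down in H. pseudoburtonii at 30 min. The like share of all tested pairs is not given here. The median change of all tested genes at 30 min was 0.56 in H. burtonii and 0.39 in H. pseudoburtonii. Of the 35 paired genes higher in H. burtonii at 30 min, 22 differed in change from their pair and 1 was itself called lower in H. pseudoburtonii. These 35 were picked by the same H. burtonii change that is taken off in the difference, which favours lower calls. The like share of all pairs higher in H. burtonii is not given here.

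By role, 10 of the 16 methylase pairs had a lower change in H. pseudoburtonii at 30 min, and so did 3 of the 3 pairs of the threonylcarbamoyl and isopentenyl list. Of all tested pairs 23.3% did so. Other lists had fewer such pairs. DUS1 alone of the dihydrouridine pairs and TYW1 alone of the wybutosine pairs were lower, and no pair of the deamination and acetylation list was called. The largest difference was that of TRM11, -3.11 (SE 0.53, adjusted p = 0.000796) at 30 min. DUS1 differed by -2.77 (SE 0.4998, adjusted p = 0.00119), TRM6 by -2.46 (SE 0.36, adjusted p = 0.000298), QRI7 by -2.41 (SE 0.46, adjusted p = 0.00166) and SLM3 by -2.35 (SE 0.51, adjusted p = 0.00379) at 30 min. These calls held with each library left out and under both scalings. That of MOD5, -2.45 (SE 0.502, adjusted p = 0.00264), held in the same way, at -3.12 without library 1 and -1.79 without library 2 of 0 min of H. burtonii. At 15 min LIG1 differed by -2.05 (SE 0.37, adjusted p = 0.00275), TYW1 by -1.86 (SE 0.34, adjusted p = 0.00336) and TRM44 by -2.61 (SE 0.55, adjusted p = 0.0069), each held with every library left out and under both scalings. TRM44 in H. pseudoburtonii read 31.6 and 34.3 FPKM at 0 min, 29.6 and 12.9 at 5 min, 10.7 and 16.2 at 15 min and 27.5 and 29.8 at 30 min. TRM8 differed by -2.804 (SE 0.71, adjusted p = 0.0165) at 15 min, which became -3.69 and -1.92 without library 1 or 2 of 0 min of H. burtonii and missed the threshold without library 2 of 15 min of H. burtonii, library 2 of 0 min of H. pseudoburtonii or library 1 of 15 min of H. pseudoburtonii, with an adjusted p up to 0.07, and under quantile scaling.

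ATE1 and TRM9 differed in the other direction. For ATE1 the difference was 1.51 (SE 0.39, adjusted p = 0.021) at 5 min, 2.16 (SE 0.39, adjusted p = 0.00273) at 15 min and 2.73 (SE 0.39, adjusted p = 0.000245) at 30 min, and the later calls held with each library left out while the 5 min call missed the threshold without library 1 of 0 min of H. burtonii, library 2 of 5 min of H. burtonii, library 1 of 0 min of H. pseudoburtonii or library 1 of 5 min of H. pseudoburtonii, with an adjusted p up to 0.095. For TRM9 it was 1.81 (SE 0.54, adjusted p = 0.0321) at 15 min and 2.08 (SE 0.54, adjusted p = 0.00974) at 30 min. The 30 min value was 1.47 without library 1 and 2.69 without library 2 of 0 min of H. burtonii and held as a call, and the 15 min value was 1.195 and 2.42, a call that missed the threshold without library 1 of 0 min of H. burtonii, library 2 of 15 min of H. burtonii, either library of 0 min of H. pseudoburtonii or library 2 of 15 min of H. pseudoburtonii, with an adjusted p up to 0.0966. DTD1 changed sign, from 1.13 (SE 0.23, adjusted p = 0.00614) at 5 min and 0.92 (SE 0.23, adjusted p = 0.0142) at 15 min to -0.63 (SE 0.23, adjusted p = 0.0469) at 30 min. Its 5 min call held with each library left out, and the 15 min call missed the threshold without library 1 of 0 min of H. pseudoburtonii. The 30 min call missed the threshold under both other scalings. That call was also lost without either library of 0, 5 or 30 min of H. burtonii or either library of 0 or 30 min of H. pseudoburtonii. PUS4 differed by -1.31 (SE 0.29, adjusted p = 0.0114) at 5 min, a call that missed the threshold without library 2 of 0 min of H. pseudoburtonii.

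**Figure D5:**
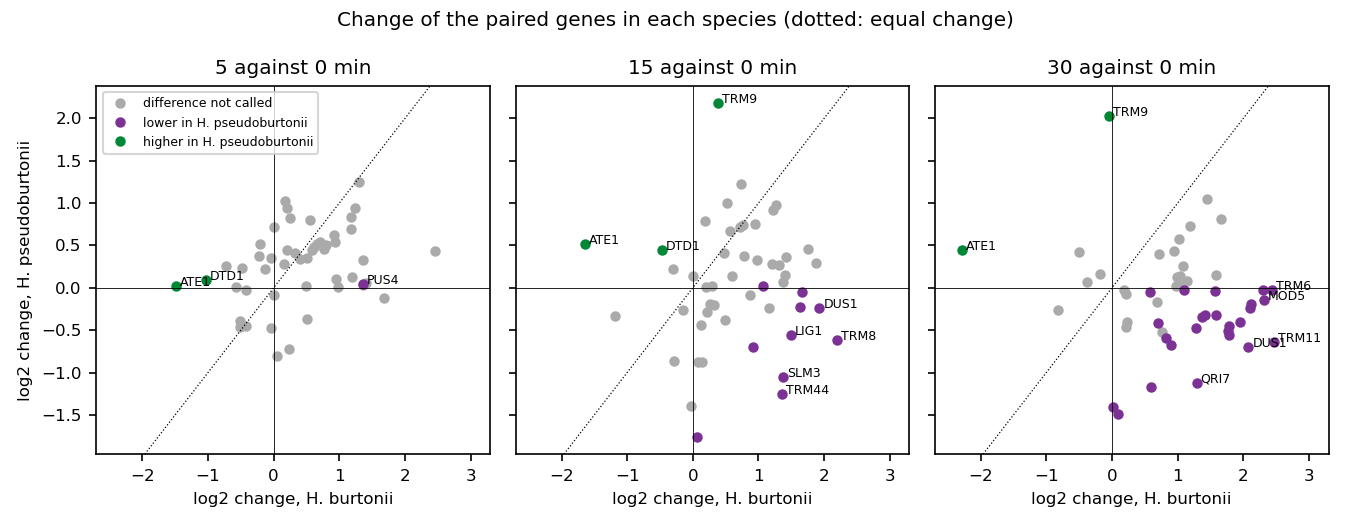
Log2 change of the 50 paired tRNA genes in H. burtonii (horizontal) and H. pseudoburtonii (vertical) against 0 min at 5, 15 and 30 min. The dotted line marks equal change, purple and green mark pairs whose difference was called lower or higher in H. pseudoburtonii, and names are given for the largest. At 30 min 25 points are purple and 2, ATE1 and TRM9, are green.

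Across the 50 pairs Pearson's r between the changes of both species was 0.31 at 5 min, 0.05 at 15 min and -0.13 at 30 min. Over all 3399 tested pairs it was 0.02, 0.13 and 0.07. These values describe points that share libraries within a species, and their difference was not tested.

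Other genes of the pathway, listed by name and outside the description rule, were counted in the same way. They cover RNase P, the 3′ trailer nuclease, export, Elongator, the sulfur relay, KEOPS, decay and transcription by RNA polymerase III. In H. burtonii 10, 11 and 22 of 47 were higher at 5, 15 and 30 min, beside 11.2%, 22.8% and 37.0% of all tested genes, and 3 were lower at 5 min. At 15 min 6 and 3 and at 30 min 10 and 8 were higher under median-ratio and quantile scaling, with 3 lower at 30 min under either. LOS1, the exporter of tRNA from the nucleus, rose by 3.403 (SE 0.45, adjusted p = 0.000901) at 30 min, at 2.76 without library 1 and 4.04 without library 2 of 0 min. RPP1, a protein of RNase P, the enzyme of the 5′ end, rose by 2.17 (SE 0.295, adjusted p = 0.000964). In H. pseudoburtonii 2, 2 and 8 of 46 were higher at these times, beside 4.17%, 9.9% and 25.8% of all tested genes. At 30 min 7 of the 46 were lower, beside 9.69% of all tested genes. Under those scalings 3 and 2 were higher and 10 and 9 lower at 30 min. LOS1 fell there by 1.13 (SE 0.197, adjusted p = 0.00448) at 30 min and LHP1, the La protein that guards the ends of precursors, fell by 1.72 (SE 0.23, adjusted p = 0.00173). SPT15, the TATA-binding protein, was higher by 1.27 (SE 0.17, adjusted p = 0.00165) at 30 min. These calls held under both scalings and with each library left out.

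The aminoacyl-tRNA synthetases and the ribosome biogenesis genes were set beside the tRNA genes. In H. burtonii 22 of 38 synthetases were higher at 30 min, and 22 of 65 ribosome biogenesis genes were higher and 3 lower, against 39 and 2 of the 58 tRNA genes and 37.0% and 11.1% of all tested genes. Under median-ratio and quantile scaling 10 and 9 synthetases and 11 and 7 ribosome biogenesis genes were higher, and 1 and 1 and 5 and 6 were lower. In H. pseudoburtonii 1 of 36 synthetases was higher and 14 lower, and 2 of 64 ribosome biogenesis genes were higher and 14 lower, against 4 and 5 of 61 and 25.8% and 9.69% of all tested genes. The medians relative to all genes at 30 min were 0.26 and 0.06 for synthetases and ribosome biogenesis in H. burtonii, while H. pseudoburtonii had -0.82 and -0.66, beside 0.49 and -0.44 for the tRNA genes. With quantile scaling the ribosome biogenesis median of H. burtonii was at -0.01, on the other side of that of all genes. No test set the lists against each other.

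Some tRNA genes lie close together, with 9 genes or fewer between them. There were 6 such neighbour pairs in each species, and 4 of them, TRM3 with TRM5, SEN54 with TRM10, TRM82 with TRM13 and TAD2 with TRM8, were neighbours in both. In H. burtonii TAD2 (chromosome 7, 223291 to 223971) and TRM8 (chromosome 7, 237031 to 237813) were 13059 bases apart. At 15 min TAD2 was called lower and TRM8 higher, by 2.19 (SE 0.58, adjusted p = 0.0272), a value that was 3.07 without library 1 and 1.31 without library 2 of 0 min and missed the threshold without either library of 5 or 30 min, library 2 of 0 min or library 2 of 15 min, with an adjusted p up to 0.143, and under quantile scaling. Coordinates are those of the deposited tables, whose genome build the labels do not name.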

How the data were processed

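RNA was measured in 16 libraries, 8 of each species. The authors deposited FPKM, 1 file for each species and no counts, so read depth is unknown. The depth given is an estimate from the smallest nonzero products of FPKM and gene span. Per the submitters' processing notes, the reads passed through Cufflinks 2.2.1, TopHat2 2.1.1, FastQC 0.11.8 and CASAVA 1.8.2, with no order or settings stated. Genome build, annotation and strandedness: not given in the sources used here.

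FPKM were fitted as log2(FPKM + 1) with limma 3.58.1 under R 4.3.3, for each species on its own, with each time as a group and a prior variance that follows the mean level. Genes with at least 1 FPKM in at least 2 of 8 libraries passed the filter (6047 and 5798 in the 2 species, H. burtonii first), among them all 58 and 61 tRNA genes. Fold changes are on the log2(FPKM + 1) scale, which understates low genes. Summaries and plots were made with matplotlib 3.10.9, numpy 2.4.6, data.table (an R package, version 1.17.8) and pandas 2.3.3 under Python 3.11.15. All comparisons with 0 min rest on the same 0 min libraries. Pairs between species were made by Swiss-Prot accession (3235) or name (180), and 3399 of 3415 pairs were tested. Such pairs may join paralogs.

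Data were simulated from each gene's mean over all 8 libraries of a species and its spread between libraries of the same harvest. Changes at 30 min were put into 200 genes of each species, all averaging at least 10 FPKM, so recovery of lower genes was not tested. Unlike the data at 30 min, the simulation held no shift over all genes. Of genes changed by a log2 of 1, 2 and 3, 43.9%, 78.4% and 92.8% were recovered in H. burtonii. That run held 6035 genes, with 12 of 159 calls false. In H. pseudoburtonii 26.8%, 60% and 85.1% were recovered over 5781 genes, with 5 of 120 calls false.

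Members and lists were chosen with earlier results of these data known. The 4 genes SLM3, TRM13, THG1 and AlaXp-II were moved between role lists once the annotation was read and before any fit. Genes are named where they were among the 8 largest called changes each way with a mean of at least 10 FPKM, the 2 smallest p-values of a role list, the 3 highest or lowest means, the 3 largest called steps between harvests or the 6 largest called differences each way. KAE1, MSS1, SEN15, SEN34, TILS_SCHPO, TRM10, TRM61 and TRM7 were named as partners or as further cases after their values were seen, as were the genes named from the other pathway lists. The alternatives tried were quantile and median-ratio scaling, pseudocounts of 10 and 0.1, other filters, no trend, a replicate block, a 2-fold requirement, pairing by accession only, omission of the charged and mischarged list and omission of each library.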

Additional observations from a re-analysis of the deposited data

Results flagged for a closer look

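A paired gene is given here where its change against 0 min differed between the strains by limma's test of the difference itself, at an adjusted p under 0.05 over 3399 pairs. Each value is a log2 change of H. pseudoburtonii from which the H. burtonii change was taken. At 5 min the difference was below 0 for 1 pair, with -1.31 for PUS4. At 5 min it was above 0 for 2 pairs, with 1.51 for ATE1 and 1.13 for DTD1. At 15 min it was below 0 for 10 pairs, with -2.804 for TRM8, -2.61 for TRM44, -2.43 for SLM3, -2.16 for DUS1, -2.05 for LIG1, -1.86 for TYW1, -1.82 for FMT1, -1.71 for TRM6, -1.62 for TRM82 and -1.05 for PUS4. At 15 min it was above 0 for 3 pairs, with 2.16 for ATE1, 1.81 for TRM9 and 0.92 for DTD1. At 30 min it was below 0 for 25 pairs, with -3.11 for TRM11, -2.77 for DUS1, -2.46 for TRM6, -2.45 for MOD5, -2.41 for QRI7, -2.35 for SLM3, -2.34 for LIG1, -2.34 for RIT1, -2.33 for TYW1, -2.31 for TRM44, -2.27 for TRM8, -2.23 for TRM10, -1.901 for KAE1, -1.76 for TRM82, -1.75 for NCL1, -1.73 for NCS6, -1.71 for PUS4, -1.604 for TRM7, -1.59 for FMT1, -1.58 for PTH2, -1.42 for TRM5, -1.41 for ABP140, -1.12 for CCA1, -1.12 for PUS1 and -0.63 for DTD1. At 30 min it was above 0 for 2 pairs, with 2.73 for ATE1 and 2.08 for TRM9. With 2 libraries at each time no library could be tested for standing apart within its group. Some values moved widely with 1 library left out. At 30 min FMT1 ran from -2.18 to -0.99, NCL1 from -2.47 to -1.02 and TRM8 from -3.15 to -1.39. Of the 27 differences at 30 min 19 held under both other scalings and with each library left out, of the 13 at 15 min 5 and of the 3 at 5 min 1. Species and library series cannot be told apart in these differences. The depth estimate ran opposite ways in the strains, lowest at 0 min in H. burtonii and highest at 0 min in H. pseudoburtonii. The part of depth in the differences was not tested.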

How the results depend on the processing

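Counts of tRNA genes called against 0 min as deposited, by limma, at 5, 15 and 30 min were 12, 25 and 41 in H. burtonii, 2, 9 and 9 in H. pseudoburtonii and 3, 13 and 27 for the differences between strains. Median-ratio scaling moved them to 16 and 19 in H. burtonii (15 and 30 min) and 1 at 5 min in H. pseudoburtonii. Quantile scaling moved them to 6 and 15 in H. burtonii (15 and 30 min), 1 and 20 in H. pseudoburtonii (5 and 30 min) and 8 for the 15 min difference. The fit without a trend gave 0 at 5 min and 5 at 15 min in H. pseudoburtonii, a pseudocount of 0.1 gave 4 at 15 min, and a pseudocount of 10, which shrinks changes by construction, gave 1 at 5 min, as did the 2-fold requirement. From 5 to 15 min the 7 calls of H. burtonii became 1 under median-ratio scaling and 4 under quantile scaling, where 1 of the 7 was kept and 3 other genes were lower, and 3 with the 2-fold requirement, and the 1 of H. pseudoburtonii became 0 without the charged and mischarged list. From 15 to 30 min the 4 of H. burtonii became 1 under median-ratio scaling and 7 with a pseudocount of 10, and the 5 of H. pseudoburtonii became 10 and 15 under the scalings, 3 with no trend, 2 with the 2-fold requirement and 3 without the charged list. The causes were not tested beyond these settings.

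With 1 library left out, counts ran from 1 to 18, 12 to 24 and 18 to 41 in H. burtonii at 5, 15 and 30 min, 0 to 3, 2 to 11 and 4 to 10 in H. pseudoburtonii, and 2 to 5, 9 to 15 and 20 to 29 for the differences. For 5 to 15 and 15 to 30 min they ran from 0 to 17 and 0 to 7 in H. burtonii and 0 to 4 and 0 to 6 in H. pseudoburtonii. A time with 1 library left takes its spread from the others.

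Libraries share replicate numbers, but the deviations of like-numbered libraries correlated above 0.1 for some pairs of times only. In H. burtonii the 0, 5 and 15 min libraries gave 0.16, 0.46 and 0.16 and the pairs with 30 min -0.16 to 0.01, and in H. pseudoburtonii all pairs gave -0.09 to 0.04, so the numbers were not taken as pairs. With the replicate block the counts of H. burtonii were 12, 25 and 39 at 5, 15 and 30 min, and those of H. pseudoburtonii were 0, 5 and, from 15 to 30 min, 1, and the 30 min difference was called for 26 pairs. Of the calls against 0 min, 13 of 41 at 30 min in H. burtonii and 4 of 9 in H. pseudoburtonii held under both scalings and with each library left out. FPKM without counts carry no depth, so no counting error is given.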
